A study of Rattus norvegicus with 6 samples.

Results

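Activins are secreted dimers of the inhibin β subunits and belong to the TGF-β superfamily. They bind a type II receptor such as ACVR2A, which recruits and phosphorylates a type I receptor such as ACVR1B (ALK4), and the type I receptor then phosphorylates SMAD2 and SMAD3. Follistatin binds activins outside the cell and keeps them from their receptors. In joint tissue, activin A is known as a factor that inflammatory cytokines and injury induce.

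The 9 activin and follistatin genes compared here were taken by gene symbol from the 18420 genes of the deposited table, and all 9 were found. They are the ligand subunit genes Inhba and Inhbb, the binding protein genes Fst and Fstl3, the follistatin-like gene Fstl1, the receptor genes Acvr1, Acvr1b and Acvr2a, and Gdf15, a divergent member of the superfamily. RNA of primary chondrocytes from wild-type male Sprague-Dawley rats weighing 180 to 220 g was sequenced in 6 libraries. The TNF-α group (n = 3) received TNF-α at 10 ng/mL for 6 h, and the TNF-α+NFL group (n = 3) received the same and then, for 24 h more, Nanofat lysate (NFL), the cleared freeze–thaw lysate of 100000 cells of the stromal fraction of rat abdominal fat. Both groups thus carried the TNF-α treatment, and the untreated NC group was not analysed here. The cells came from knee and hip cartilage, were used at the third passage, and were divided from the same passage. The study describes the libraries of a group as independent biological replicates. The labels do not tie them to animals, so the tests measure the spread between these libraries. The treatment times given end at 6 h in the TNF-α group and at 30 h in the TNF-α+NFL group. Whether the cells were harvested at these times was not checked, so NFL and the time of harvest cannot be told apart.

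Every direction given here follows the deposited labels. The study's own fold changes of both treated groups against the NC group were subtracted from each other. Over 3291 genes, this difference correlated negatively with the fold changes by the deposited labels. Only the sign of the correlation was kept, so how far the study's fold changes and the labels run opposite is not given. Which of them is right was not tested.

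The libraries held from 19344893 to 19725135 estimated counts. Of the chondrocyte markers, Sox9 was at 3.93 to 5.07 TPM, Col2a1 at 7.1 to 9.54 TPM and Acan at 4.47 to 6.12 TPM, while Col1a1, the main collagen of fibroblasts, was at 1123 to 1401 TPM. Cnmd, another cartilage marker, had at most 4.1 counts in a library. All 12 markers of the chondrocyte list were in the table, and their summed level, most of it Prg4 (947.6 to 1329 TPM), overlapped between the groups (1402 to 1835 TPM against 1541 to 1699 TPM in the TNF-α+NFL group). Of the 11 tested markers, 3 were higher without overlap in the TNF-α+NFL group and 0 lower, beside 8.66% and 8.17% of all genes tested. These were Col2a1 (7.1 to 8.16 TPM against 8.68 to 9.54 TPM), Col11a1 (404.5 to 449.2 TPM against 477.5 to 533.3 TPM, edgeR adjusted p = 0.052) and Col9a1. The 8 genes of the fibroblast list summed to 5308 to 5893 TPM in the TNF-α group and to 5908 to 6072 TPM in the TNF-α+NFL group. Of these 8 genes, 2 were higher without overlap in the TNF-α+NFL group and 1, Lum, was lower, while Col1a1, Col1a2, Col3a1 and Col5a1 overlapped. Of the 8 leukocyte genes 6 were in the table, and TNF-α replicate 1 stood apart in 4 of them. It held 40 counts of Csf1r, 11 of Tyrobp, 7 of Ptprc and 6 of Itgam, against at most 7, 0, 2 and 2 in the other 5 libraries. The sum of the list, made up mostly of Cd14 and Cd68, was 104.7 to 115.5 TPM against 98.2 to 101.4 TPM. Adipoq, Plin1, Lep and Cidec had at most 4 counts each, Pecam1 at most 4 and Kdr none. The 8 adipocyte genes summed to 40.21 to 43.79 TPM against 42.41 to 47.04 TPM, the 7 endothelial genes in the table to at most 1.66 TPM and the 3 blood genes in the table to at most 0.54 TPM. The fibroblast and leukocyte sums and these 3 collagen genes did not overlap between the groups, and their part in the results below was not tested. In bulk RNA, fewer cells of a type and less RNA per cell cannot be told apart.

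Levels of different genes were compared as TPM, which is scaled to transcript length. Fstl1 was the most abundant of the 9 genes, at 1394 to 1646 TPM, and lay above 99.5% to 99.6% of all genes in each library. Fst followed at 223 to 258 TPM, then Inhba at 65.8 to 83.5 TPM, and the ranges of these over the 6 libraries did not overlap. Fstl3 (33.3 to 47.3 TPM) lay above Acvr1 (27.8 to 33.6 TPM) in each of the 6 libraries, although the ranges touched. Inhbb (17.2 to 21.4 TPM) and Acvr2a (16.7 to 17.2 TPM) came next, each above the following gene in 6 of 6 libraries. Gdf15 (11.4 to 16.2 TPM) and Acvr1b (12.8 to 14.8 TPM) had overlapping ranges, and their order differed by group, since Gdf15 was the higher of the pair in the 3 TNF-α libraries and Acvr1b in the 3 TNF-α+NFL libraries. Of the binding protein genes, Fst thus lay above both ligand genes and Fstl3 lay between Inhba and Inhbb, in each of the 6 libraries.

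**Figure D1:**
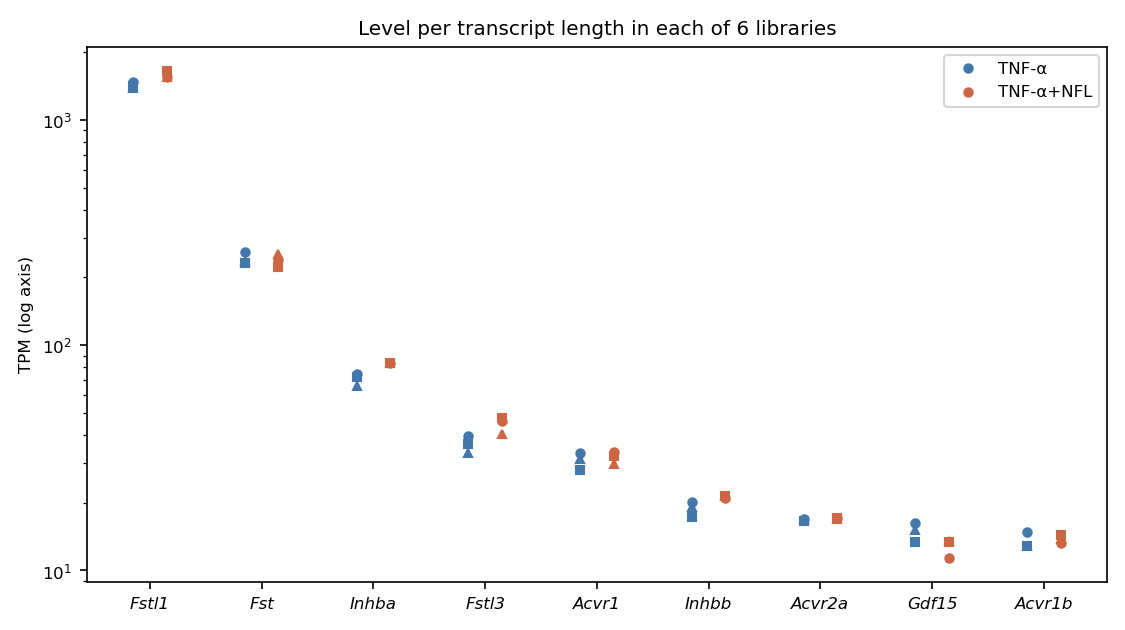
TPM of the 9 genes in each of the 6 libraries, on a log axis, ordered by mean level (blue, TNF-α; orange, TNF-α+NFL; circle, square and triangle, replicates 1, 2 and 3). The order runs from Fstl1 at 1394 to 1646 TPM to Gdf15 and Acvr1b, which overlap, as do Fstl3 and Acvr1.

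Promoter windows, the 250 bases before the RefSeq transcript start on GRCr8, were found for 7 of the 9 genes, all but Fst and Acvr1. They are shown for Inhba, Fstl3 and Gdf15, whose fold changes between the groups were the 3 largest in size among the 9 genes. Of the 2 starts listed for Gdf15, the window that held a motif match is shown. Capitals mark matches on either strand to the AP-1 motif TGANTCA, to the cAMP response element with a free base, TGANGTCA, to the SMAD-binding motif CAGACA, to the composite motif of C/EBP and ATF factors, TGATGNAA, to the TATA box TATAAA, or to the p53 half-site consensus.
Inhba (chr17:53804509-53804758, minus strand): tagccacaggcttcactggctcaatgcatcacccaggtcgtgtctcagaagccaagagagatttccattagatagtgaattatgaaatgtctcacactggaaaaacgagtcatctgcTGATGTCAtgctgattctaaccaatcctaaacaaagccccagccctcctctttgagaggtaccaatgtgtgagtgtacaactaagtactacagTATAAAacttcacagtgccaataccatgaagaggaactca
Fstl3 (chr7:10579845-10580094, minus strand): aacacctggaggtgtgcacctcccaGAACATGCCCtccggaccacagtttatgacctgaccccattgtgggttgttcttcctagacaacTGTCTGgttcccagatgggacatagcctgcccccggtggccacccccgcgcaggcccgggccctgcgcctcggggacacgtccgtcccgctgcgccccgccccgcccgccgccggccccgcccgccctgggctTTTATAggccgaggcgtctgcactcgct
Gdf15 (chr16:18839015-18839264, plus strand): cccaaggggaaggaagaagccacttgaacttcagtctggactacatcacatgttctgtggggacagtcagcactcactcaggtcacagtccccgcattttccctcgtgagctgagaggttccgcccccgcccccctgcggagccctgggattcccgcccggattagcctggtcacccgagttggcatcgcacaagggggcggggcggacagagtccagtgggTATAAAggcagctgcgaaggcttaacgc

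The TATA match began 40 bases before the start in Inhba and 28 bases before it in Fstl3 and Gdf15, and 12.9% of the 33469 windows of the table held this motif. The other match in Inhba was TGATGTCA (motif in 8.88% of windows). Fstl3 also held TGTCTG, the reverse complement of the SMAD motif (17.2%), and GAACATGCCC, a p53 half-site (6.64%). The windows of Inhbb, Fstl1, Acvr1b and Acvr2a held none of the 6 motifs, and AP-1 (6.34%) and C/EBP-ATF (3.4%) were found in none of the 7 genes. The share of G and C ran from 43.6% in Inhba to 86.8% in Inhbb, against a median of 51.2% over all windows. Matches describe the letters of these windows only.

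Between the groups, none of the 9 genes passed an adjusted p of 0.05 in edgeR's quasi-likelihood test over the 13250 genes tested, where 0.611% of all genes did (0.408% higher and 0.204% lower in the TNF-α+NFL group). The DESeq2 Wald test passed 1 of the 9, Inhba, beside 2.44% of the genes it gave an adjusted p, and limma-voom passed none, beside 0.264% of all genes. All 9 genes passed the filter on low counts. At an unadjusted p under 0.05 there were 5 of 9, against 11.1% of all genes (5.66% higher and 5.45% lower). The 9 genes were chosen with earlier results of these data known, so their counts beside all genes are a description only. The 5 were Inhba, Inhbb, Fstl1 and Fstl3, with higher values in the TNF-α+NFL group, and Gdf15, with lower values. In the same 5 genes the 3 libraries of one group all lay on one side of the 3 of the other, as they did in 16.8% of all genes tested (8.66% higher and 8.17% lower). The exact permutation test (two-sided) gave p = 0.10 for each of these 5, the smallest that 3 libraries against 3 allow. The median log2 fold change of the 9 genes was 0.050, against -0.0035 for all genes tested.

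**Figure D2:**
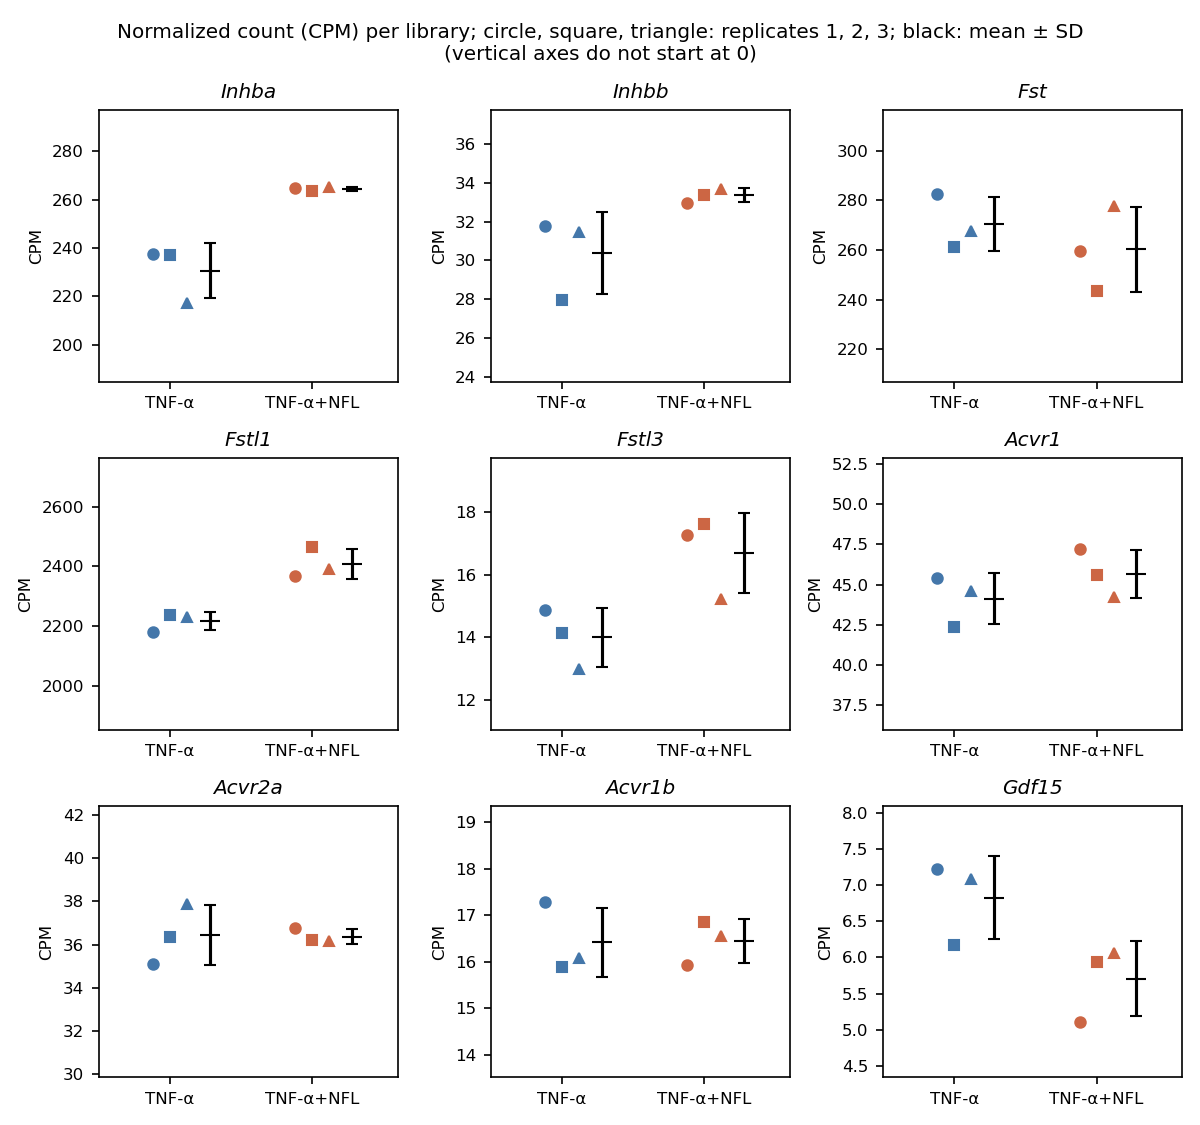
Normalized counts (CPM) of the 9 genes, 1 panel each, with the 3 libraries of each group as points and the mean ± SD in black. The axes do not start at 0. Inhba, Inhbb, Fstl1 and Fstl3 lie higher and Gdf15 lower in all 3 TNF-α+NFL libraries, while Fst and the receptor genes overlap.

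Of the ligand subunits, Inhba (Entrez gene 29200), which encodes the βA chain of activin A, was at normalized counts (CPM, scaled to library size with TMM) of 237, 237 and 218 in TNF-α replicates 1, 2 and 3 and of 265, 263 and 265 in the TNF-α+NFL replicates. The 3 libraries of the TNF-α+NFL group were nearly level and all above the TNF-α group, in which replicate 3 was the lowest. The group means were 231 ± 11.3 and 264 ± 0.811 (SD, n = 3 each), and the log2 fold change was 0.20 (standard error 0.042, 95% confidence interval 0.11 to 0.29, edgeR quasi-likelihood adjusted p = 0.059). This is a difference of 14.7%, and its p ranked 91 among the 13250 genes, 81 of which passed the threshold. Without TNF-α replicate 1 the adjusted p was 0.00069, and without TNF-α+NFL replicate 1 it was 0.33. It was 0.0053 with the DESeq2 Wald test and 0.11 with limma-voom.

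Inhbb (Entrez gene 25196), which encodes the βB chain of activin B, was at 31.8, 27.9 and 31.4 CPM in the TNF-α replicates and at 33.0, 33.4 and 33.7 CPM in the TNF-α+NFL replicates. The groups did not overlap, but the distance between the nearest libraries was small and TNF-α replicate 2 stood below the rest. The log2 fold change was 0.13 (standard error 0.060, 95% confidence interval 0.0061 to 0.26, edgeR adjusted p = 0.42), and without TNF-α replicate 2 it was 0.081. The ratio of Inhba to Inhbb in TPM was 3.78 ± 0.394 in the TNF-α group and 3.93 ± 0.0422 in the TNF-α+NFL group (SD, n = 3 each), with overlap.

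Fst (Entrez gene 24373), which encodes follistatin, was at 282, 261 and 268 CPM in the TNF-α replicates and at 259.6, 243 and 278 CPM in the TNF-α+NFL replicates. The groups overlapped, and the highest and the lowest TNF-α+NFL library spanned most of the range. The log2 fold change was -0.055 (standard error 0.050, 95% confidence interval -0.16 to 0.053, edgeR adjusted p = 0.76), so the interval ran from -10.7% to 3.73%. The log2 fold change was -0.022 without TNF-α replicate 1, -0.0085 without TNF-α+NFL replicate 2 and -0.10 without TNF-α+NFL replicate 3.

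Fstl3 (Entrez gene 114031), which encodes a second secreted protein that binds activins, was at 14.9, 14.1 and 12.99 CPM in the TNF-α replicates and at 17.3, 17.6 and 15.2 CPM in the TNF-α+NFL replicates. The lowest TNF-α+NFL library, replicate 3, was close to the highest TNF-α library. The log2 fold change was 0.26 (standard error 0.082, 95% confidence interval 0.077 to 0.43, edgeR adjusted p = 0.23), a difference of 19.4%. It rested on 257 to 344 counts a library, and with 1 library left out the adjusted p ran from 0.043 (TNF-α replicate 1) to 0.63.

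Fstl1 (Entrez gene 79210) encodes a secreted glycoprotein of mesenchymal cells that shares a follistatin-like domain. It was at 2180.4, 2237 and 2231 CPM in the TNF-α replicates and at 2369, 2466 and 2390.4 CPM in the TNF-α+NFL replicates. Each TNF-α+NFL library was above each TNF-α library. The log2 fold change was 0.12 (standard error 0.035, 95% confidence interval 0.043 to 0.20, edgeR adjusted p = 0.20), a difference of 8.68%. With TNF-α replicate 1 left out the adjusted p was 0.018, and with TNF-α+NFL replicate 2 left out it was 0.60.

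The balance of binding protein to ligand transcripts was followed as a ratio of TPM within each library, which does not depend on the scaling between libraries. The ratio of Fst to Inhba was 3.46, 3.20 and 3.60 in the TNF-α replicates and 2.86, 2.67 and 3.05 in the TNF-α+NFL replicates. The TNF-α+NFL libraries were all lower, at a mean of 2.86 ± 0.190 against 3.42 ± 0.205 (SD, n = 3 each). With Fst and Fstl3 summed over Inhba and Inhbb the ratio was 3.10 ± 0.0995 in the TNF-α group and 2.71 ± 0.12 in the TNF-α+NFL group, again with no overlap. The ratio of Fst to Fstl3 was 6.65 ± 0.409 and 5.39 ± 0.797, in the same order. These ratios describe the libraries and were not tested. They follow from the values of Inhba and Fstl3 given before and are not further evidence.

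**Figure D3:**
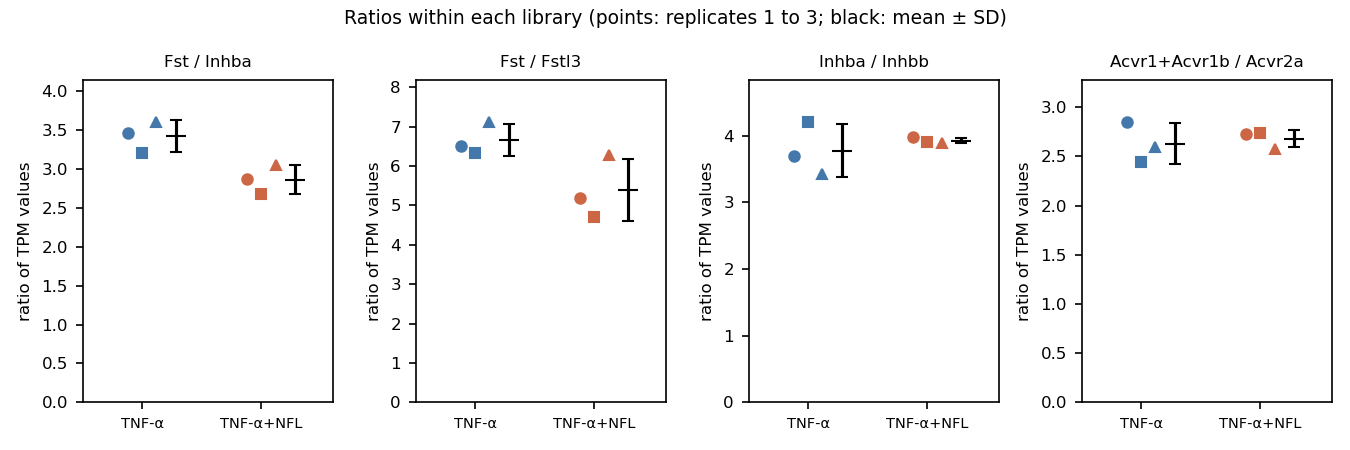
Ratios of TPM values within each library, with the axis starting at 0, for 3 libraries a group (points) with the mean ± SD in black. The ratios of Fst to Inhba and of Fst to Fstl3 are lower in all 3 TNF-α+NFL libraries, whereas the ratio of Inhba to Inhbb and that of type I receptor genes to Acvr2a overlap.

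The receptor genes overlapped between the groups. Acvr2a (Entrez gene 29263), the type II receptor gene, was at 35.1, 36.3 and 37.9 CPM in the TNF-α replicates and at 36.8, 36.2 and 36.1 CPM in the TNF-α+NFL replicates, with the latter inside the range of the former. Its log2 fold change was -0.0030 (standard error 0.051, 95% confidence interval -0.11 to 0.11, edgeR adjusted p = 0.99). Acvr1b (Entrez gene 29381), the type I receptor gene for activins, was at 17.3, 15.9 and 16.1 CPM and at 15.9, 16.8 and 16.5 CPM, in the same order. Its log2 fold change was 0.0028 (standard error 0.070, 95% confidence interval -0.15 to 0.15, edgeR adjusted p = 0.995). Acvr1 (Entrez gene 79558) encodes the type I receptor ALK2, best known for BMP signals. It was at 45.4, 42.4 and 44.6 CPM and at 47.2, 45.6 and 44.2 CPM, with overlap and a log2 fold change of 0.050 (standard error 0.050, 95% confidence interval -0.059 to 0.16, edgeR adjusted p = 0.79). For the 3 receptor genes the intervals bounded the difference between -9.72% and 11.6%. The directions of Acvr2a and Acvr1b turned in 3 and 4 of the 6 fits that left out 1 library, and the log2 fold change of Acvr1 was 0.024 when TNF-α replicate 2 was left out and 0.027 when TNF-α+NFL replicate 1 was. The type I receptor genes Acvr1 and Acvr1b together had 2.63 ± 0.205 times the TPM of Acvr2a in the TNF-α group and 2.68 ± 0.0898 times in the TNF-α+NFL group (SD, n = 3 each).

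Gdf15 (Entrez gene 29455) encodes a stress-induced cytokine. It was the least counted of the 9 genes, with 99.5 to 139.5 estimated counts a library. Its CPM was 7.22, 6.17 and 7.08 in the TNF-α replicates and 5.11, 5.94 and 6.06 in the TNF-α+NFL replicates. All TNF-α+NFL libraries were lower, but TNF-α replicate 2 was close to them, and in TPM the groups overlapped (13.43 TPM in TNF-α replicate 2 against up to 13.45 TPM). The log2 fold change was -0.26 (standard error 0.12, 95% confidence interval -0.51 to -0.0087, edgeR adjusted p = 0.43). Gfral, the receptor gene of GDF15, had no counts in any library, which allows up to 3 counts or 0.152 to 0.155 CPM, for counting error only. Ret, its co-receptor gene, had 106 to 156 counts a library, with CPM of 7.64, 7.90 and 7.43 in the TNF-α group and of 6.94, 6.25 and 5.40 in the TNF-α+NFL group. No library overlapped, at a fold change of -0.31 on the log2 scale (edgeR adjusted p = 0.31).

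The estimated counts of Inhba, Acvr1b and Gdf15 were fractional in 6 of 6 libraries and those of Inhbb in 5, whereas those of Fst, Fstl1, Fstl3, Acvr1 and Acvr2a were whole in all. An estimate can be fractional where reads are shared between sequences, and whether that is so for the first 4 genes was not tested.

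The number of passing genes turned on TNF-α replicate 1. Without it, Inhba, Fstl1 and Fstl3 passed an adjusted p of 0.05, at log2 fold changes of 0.22, 0.11 and 0.30, while the genes passing among all tested became 460 higher and 470 lower. This is the library with the most counts of Csf1r, Tyrobp, Ptprc and Itgam, whose part in this was not tested. In the other 5 fits that left out 1 library, none of the 9 genes passed. The directions of Inhba, Inhbb, Fst, Fstl1, Fstl3, Acvr1 and Gdf15 were the same in each of the 6 fits, which share libraries with each other.

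**Figure D4:**
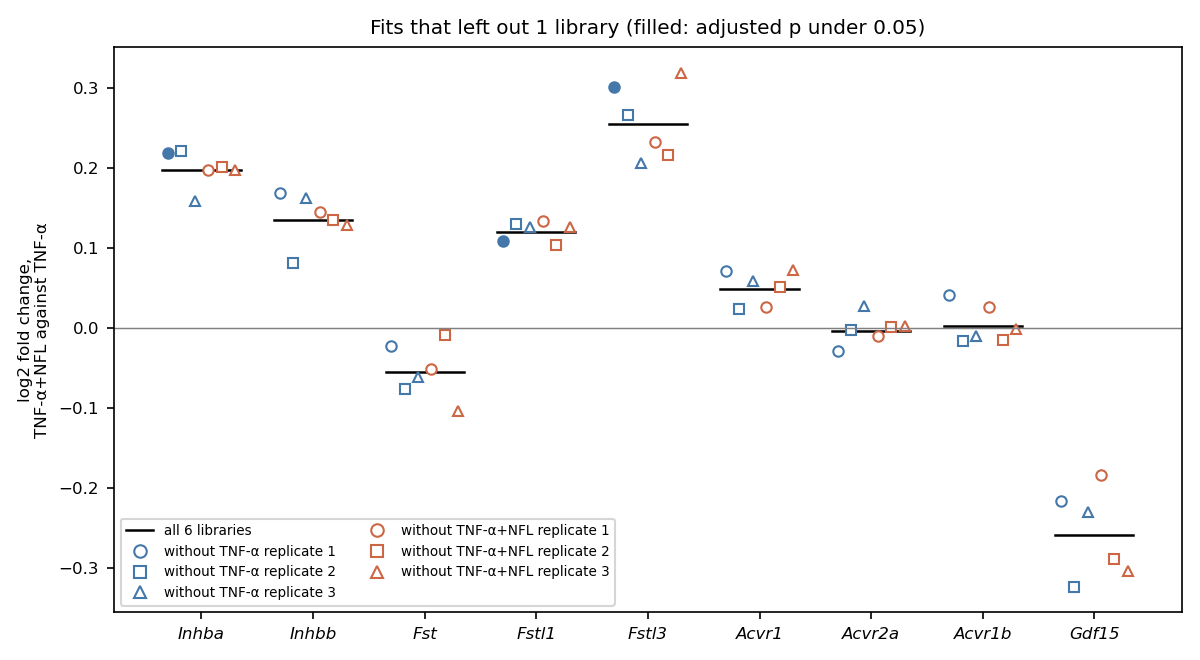
Log2 fold changes of the 9 genes (TNF-α+NFL against TNF-α) with all 6 libraries (black line) and in the 6 fits that each left out 1 library (blue, a TNF-α library left out; orange, a TNF-α+NFL library). Filled symbols, for Inhba, Fstl1 and Fstl3 without TNF-α replicate 1, mark an adjusted p under 0.05, and the values of Acvr2a and Acvr1b lie on both sides of 0.

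Other genes of the pathway, and stress response genes that are not of the activin pathway, were followed as lists of 56 genes in all. Of these, 53 were in the table and 38 were tested, 11 of which were the stress response genes. None of the 38 passed an adjusted p of 0.05 in edgeR's quasi-likelihood test. At an unadjusted p under 0.05 there were 4 with higher and 6 with lower values in the TNF-α+NFL group, beside 5.66% and 5.45% of all genes. Of the 6 lower, 5 were stress response genes. The DESeq2 Wald test passed 1 of the 38, the stress response gene Cdkn1a, beside 2.44% of the genes it gave an adjusted p. The limma-voom fit passed none, beside 0.264%. The median log2 fold change of the 38 was -0.032. By list it was 0.048 for other ligands, 0.048 for other receptors and -0.033 for other extracellular and processing proteins. It was 0.030 for partners at the receptor or inside the cell and -0.11 for stress response genes. Among other ligands, Inhbc, Inhbe, Mstn, Nodal and Bmp7 had at most 2 counts in a library. Inha, the inhibin α chain that turns β chains into activin antagonists, had 51 to 86 counts, with a log2 fold change of -0.20 (edgeR adjusted p = 0.77, standard error 0.19). That value was -0.0072 when TNF-α replicate 3 was left out and -0.37 when TNF-α replicate 2 was. Gdf11, a ligand that shares the activin receptors, was at 20.6, 21.3 and 20.7 CPM in the TNF-α group and at 23.5, 24.8 and 22.7 CPM in the TNF-α+NFL group. The groups did not overlap, at a log2 fold change of 0.18 (adjusted p = 0.26). Bmp6 had a log2 fold change of 0.18 (adjusted p = 0.42).

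Of the 6 other receptor and co-receptor genes tested, Bmpr2, a type II receptor gene of BMPs, was at 163, 165 and 152 CPM in the TNF-α group and at 181, 180.1 and 171 CPM in the TNF-α+NFL group. Each of the latter libraries was the higher, with a log2 fold change of 0.15 (edgeR adjusted p = 0.19, standard error 0.044), and over the 6 fits that left out 1 library the adjusted p ran from 0.014 (TNF-α replicate 1) to 0.58 (TNF-α+NFL replicate 1). Acvr2b, the second type II receptor gene of activins, had only 23.98 to 40.31 counts, so that its interval ran from -0.10 to 0.92. Tgfbr3, which encodes betaglycan, the inhibin co-receptor, had a log2 fold change of -0.041 (adjusted p = 0.89). Tdgf1 and Igsf1 had at most 2 counts. Furin, a convertase that cleaves the precursors of this family, was at 276 to 307 CPM, with a log2 fold change of -0.032 (adjusted p = 0.86). Of the 12 tested partners at the receptor or inside the cell, 9 had a positive and 3 a negative log2 fold change, at a median of 0.030, beside 6385 positive and 6865 negative of all genes. Smurf1, a ubiquitin ligase for SMADs and receptors, had the only unadjusted p under 0.05 among them (log2 fold change 0.11, adjusted p = 0.37). Smad6, an inhibitory SMAD, did not overlap between the groups (log2 fold change 0.084, adjusted p = 0.54), and its value was 0.051 without TNF-α replicate 1 and 0.13 with limma on log2(FPKM + 1). Fkbp1a, which binds type I receptors at rest, had a log2 fold change of -0.013 (adjusted p = 0.95). The signs of Tgfbr3, Furin and Fkbp1a turned in 1 or 2 of the fits that left out 1 library.

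Genes of the stress responses in which Gdf15 takes part, to unfolded protein or amino acid lack and to p53, were followed as a list of 11 tested genes. Of these, 10 had a negative log2 fold change, at a median of -0.11, and 5 had lower values at an unadjusted p under 0.05. Of all 13250 genes, 6865 had a negative log2 fold change and 722 (5.45%) had lower values at that p. The list was chosen with earlier results of these data known, so its counts beside all genes are a description only. None of the list passed an adjusted p of 0.05 in edgeR's quasi-likelihood test. Cdkn1a, a p53 target that stops the cell cycle, was at 333, 346 and 351 CPM in the TNF-α group and at 306, 306 and 314 CPM in the TNF-α+NFL group. No library overlapped, at a log2 fold change of -0.15 (edgeR adjusted p = 0.10, standard error 0.038), and the adjusted p was 0.031 with the DESeq2 Wald test. With 1 library left out it ran from 0.0012 (TNF-α replicate 1, the fit with 460 higher and 470 lower genes) to 0.47. Mdm2 and Ccng1, also p53 targets, had log2 fold changes of -0.11 each, and with 1 library left out their adjusted p ran from 0.0052 to 0.69 and from 0.0042 to 0.77, passing only without TNF-α replicate 1. Sesn2 was at -0.17 (adjusted p = 0.25) and Ddit3, which encodes CHOP, at -0.14 (adjusted p = 0.40). Atf4, the main factor of the integrated stress response, had a log2 fold change of -0.061 (adjusted p = 0.71), which was -0.0017 when TNF-α replicate 3 was left out and -0.11 when TNF-α replicate 1 was. Atf3 was the exception to the sign of the list, at 0.25 (adjusted p = 0.57). These values stand beside that of Gdf15, and a link between them was not tested.

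**Figure D5:**
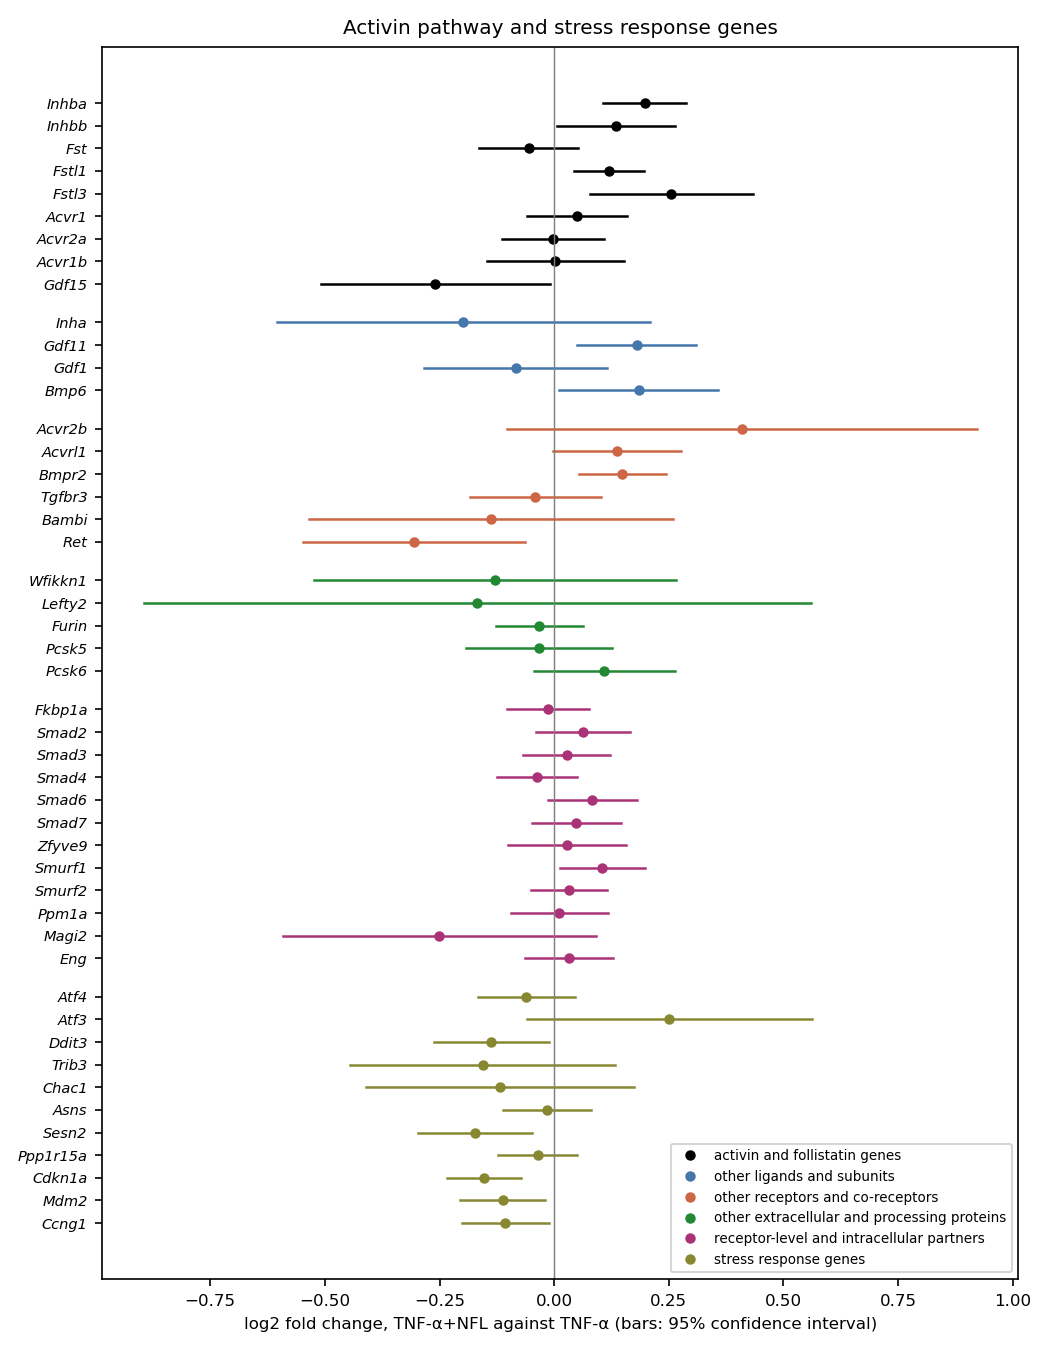
Log2 fold changes of the 9 genes and of the 38 other tested genes (TNF-α+NFL against TNF-α), with 95% confidence intervals as bars, coloured by list. The intervals of Inhba, Inhbb, Fstl1 and Fstl3 lie above 0 and that of Gdf15 below it before adjustment for multiple tests, and 10 of the 11 stress response genes lie left of 0.

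The genes most like Inhba and Fst were sought among the 9094 other genes with a mean of at least 10 CPM, by the Pearson correlation of log2 CPM over the 6 libraries. For Inhba these were Ccni (0.995), Itga6 (0.989) and Smc5 (0.985), and for Fst they were C1s (0.985), Ltbr (0.984) and Dhodh (0.982). With 6 points from 2 groups and this many genes compared, such values are a description of these libraries.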

How the data were processed

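The authors deposited, per gene and library, estimated counts, which are not normalized and need not be whole, FPKM values, scaled to transcript length and mapped fragments, and TPM values, scaled to length and to the same sum. The submitters' processing notes name HISAT2 2.0.4, Bowtie2 2.2.5, RSEM 1.2.12 and the build Rnor_6.0. All 9 genes matched the RefSeq table of GRCr8 by Entrez identifier and symbol.

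For the test between the groups, the counts were made whole by rounding, genes were kept by filterByExpr, libraries were scaled with TMM, and edgeR 4.0.16 (R 4.3.3) fitted a robust quasi-likelihood model to the 6 libraries, two-sided, with Benjamini-Hochberg adjustment over 13250 genes. Standard errors were derived from the F statistic. Single genes also had an exact permutation test over samples. DESeq2 1.42.0 and limma 3.58.1 were alternatives.

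The 9 genes and the lists were chosen with earlier results of these data known. The rule named all 9 genes, genes of the lists where their role is described, and the 3 genes most correlated with Inhba and with Fst. Genes of the lists with an unadjusted p under 0.05 were named after their values were seen, as were the 3 promoters shown.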

Additional observations from a re-analysis of the deposited data

How the results depend on the processing

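None of the 9 genes passed an adjusted p of 0.05 in the main edgeR fit, nor with DESeq2's size factors, library size alone, limma-voom or limma on FPKM. Inhba alone passed with no filter on low counts (1 gene, adjusted p = 0.025), with at least 10 counts in every library (1 gene, 0.048) and with the DESeq2 Wald test (1 gene, 0.0053), over a range from 0.00069 to 0.33 across the 15 alternatives. DESeq2 gave no adjusted p for 3 of the 9 genes. Of the other pathway and stress response genes, 1, Cdkn1a, was lower with the DESeq2 Wald test. Against 54 higher and 27 lower of all genes, there were 84 and 48 with no filter, 95 and 53 with the DESeq2 Wald test, 26 and 9 with limma-voom, 3 and 3 with limma on log2(FPKM + 1) and 7 and 6 on log2(FPKM + 0.1). On log2(FPKM + 1) the log2 fold changes of Acvr1 (0.024), Inha (-0.12), Acvr2b (0.13), Bmpr2 (0.095) and Ret (-0.17) were over 1.5 times smaller in size and that of Smad6 (0.13) larger. With the smaller addend, on log2(FPKM + 0.1), Inha was at -0.16, Acvr2b at 0.45 and Ret at -0.27. On that scale Acvr1 was at 0.025, Bmpr2 at 0.099 and Smad6 at 0.14. The cause was not tested.

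A replicate block on the library number gave 25 higher and 9 lower genes and none of the 9, with Inhba at a log2 fold change of 0.20 (adjusted p = 0.11). Deviations of same-numbered libraries from their group means correlated at 0.053, -0.018 and 0.11. Not every library correlated best with its own number, although those of replicate 3 did. With 3 libraries a group, this cannot settle whether the numbers pair the samples.

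In the 6 fits that left out 1 library there were 5 to 460 higher and 0 to 470 lower genes, and 0 to 3 of the 9 higher. Of the other pathway and stress response genes, 0 to 1 were higher and 0 to 3 lower. The most genes over all tested passed in the fit that lacked TNF-α replicate 1. Signs changed in these fits for Acvr1b (-0.016 to 0.041), Acvr2a (-0.028 to 0.028), Fkbp1a (-0.052 to 0.016), Furin (-0.072 to 0.0026) and Tgfbr3 (-0.084 to 0.048). For the 9 genes, 122 of 135 values under an alternative kept direction and side of the threshold, 6 newly passed it and 7 changed sign. Depth limits genes with few counts, such as Gdf15, whose interval ran from -0.51 to -0.0087.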
